A study of Homo sapiens with 6 samples.

Results

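Transcripts of the MYCN-amplified neuroblastoma line SK-N-BE(2) were compared between cells given the second of the study's BCAT1 hairpins (shBCAT1#2) and cells given a control hairpin (shControl). The comparison was chosen by the hairpin named in the sample labels, and it holds 4 of the 6 libraries of the series, 2 with hairpin 2 and 2 with the control hairpin. The remaining 2 libraries received a different BCAT1 hairpin (shBCAT1#1, here hairpin 1) and serve only to show where hairpin 2 differs. All 3 groups are the same cell line and carry a hairpin, and the labels used here name no drug, selection or time after its introduction. They also do not say whether the 2 replicates of a group were separate cultures, so p-values reflect only the spread among these libraries, which can be purely technical. Hairpin sequences are not used here. RNA was measured in bulk, where fewer cells of a kind and less RNA per cell cannot be told apart.

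BCAT1 is the cytosolic branched-chain aminotransferase. It moves the amino group of leucine, isoleucine and valine onto alpha-ketoglutarate and so makes glutamate and branched-chain keto acids. Its mitochondrial counterpart is BCAT2. N-Myc, the product of MYCN, is a transcription factor that pairs with MAX on E-box sequences and drives ribosome production, nucleotide synthesis and the cell cycle in MYCN-amplified neuroblastoma, a tumour of the sympathetic lineage that makes catecholamines. The series title concerns the stabilization of N-Myc by BCAT1, and the comparison asks which transcripts differ when BCAT1 is knocked down with hairpin 2.

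BCAT1 mRNA (gene ENSG00000060982, on the minus strand of chromosome 12, from 24810022 to 24949459 in hg38) stood at 459 and 475 CPM (counts relative to the TMM-scaled library total) in the control libraries and at 116 and 111 CPM in the hairpin 2 libraries. Every hairpin 2 value lay below both controls, and the level was 4.12-fold lower (−2.04 as a log2 fold change, with SE 0.04 and edgeR adjusted p = 1.3e-07). About 4664 and 4325 reads of BCAT1 remained in the hairpin 2 libraries, so the knockdown was partial. With hairpin 1 BCAT1 was at 55.8 and 55.3 CPM, and the log2 difference of hairpin 2 from hairpin 1 was 1.03 (SE 0.04, edgeR adjusted p = 7.3e-07). BCAT2 was at 22.3 and 22.4 CPM in the controls and 17.6 and 17.5 CPM with hairpin 2 (−0.35, SE 0.08, edgeR adjusted p = 0.0061), a call that ended after the correction for GC content and length described below, where the value was 0.07. MYCN mRNA was at 2250 and 2270 CPM in the controls and 1700 and 1820 CPM with hairpin 2 (−0.36, SE 0.04, edgeR adjusted p = 0.00016). After the same correction MYCN stood at −0.05 and was no longer called.

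Total counts in the 4 libraries ran from 37637699 to 39321388, the control libraries detected 25342 and 25373 genes, and the hairpin 2 libraries 26586 and 26716. All 12 markers of sympathetic neuroblasts were expressed, with summed levels of 4160 and 4180 CPM in the controls and 3080 and 3180 CPM with hairpin 2. MYCN, which is among these markers, supplied most of each sum, 2250 and 2270 CPM in the controls and 1700 and 1820 CPM with hairpin 2. Of the leukocyte markers CD3E, LYZ, TYROBP and AIF1 had no count, and of the Schwann cell and melanocyte markers SOX10, TYR, MLANA and CDH19 had none. Fibroblast markers, 10 of 12 of them tested, summed to 1830 and 1820 CPM in the controls and 1330 and 1340 CPM with hairpin 2. Leukocyte markers summed to 43.7 and 39.4 CPM in the controls and 20.9 and 17.8 CPM with hairpin 2, most of it CD68, a lysosomal protein. The part of these marker genes in the results was not tested.

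Of 18734 genes tested, 9236 passed at an adjusted p under 0.05 in edgeR's quasi-likelihood test. With hairpin 2, 4486 of them (23.9% of genes tested) were higher and 4750 (25.4%) were lower. Most changes were small: the median absolute log2 fold change of the called genes was 0.52, and of the 1387 genes past a 2-fold change 847 rose and 540 fell. Those shares of 23.9% and 25.4% are the background against which each gene list below is read. Among protein-coding genes alone, which were called more often, they were 27.8% and 29.7%. Against hairpin 1, hairpin 2 had 4290 genes higher (22.9%) and 4360 lower (23.3%). That second test compares the hairpins directly. Values given for hairpin 1 against control share the control libraries with hairpin 2, so they stand beside its values and are not a second measurement.

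The changes with hairpin 2 followed the base composition and length of transcripts. Over 13907 protein-coding genes, which do not count as replicates, log2 fold changes were set against the GC content and length of a gene's longest transcript. Spearman correlations were −0.45 with GC content and 0.4 with length. When genes were put into 5 bins of equal size, the median was 0.33 in the bin lowest in GC and −0.32 in the bin highest in GC. It was −0.32 in the bin of the shortest genes and 0.34 in the bin of the longest. Long or AT-rich genes tended to be higher with hairpin 2 and short or GC-rich genes lower. Counts of the lists below are therefore also given after a smooth trend on GC content and length had been removed from each library, which is called the corrected value. With this correction 3475 of the 13907 genes were called higher and 3672 lower. Where only the plain value is printed for a gene called changed, its direction and call held after correction.

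**Figure D1:**
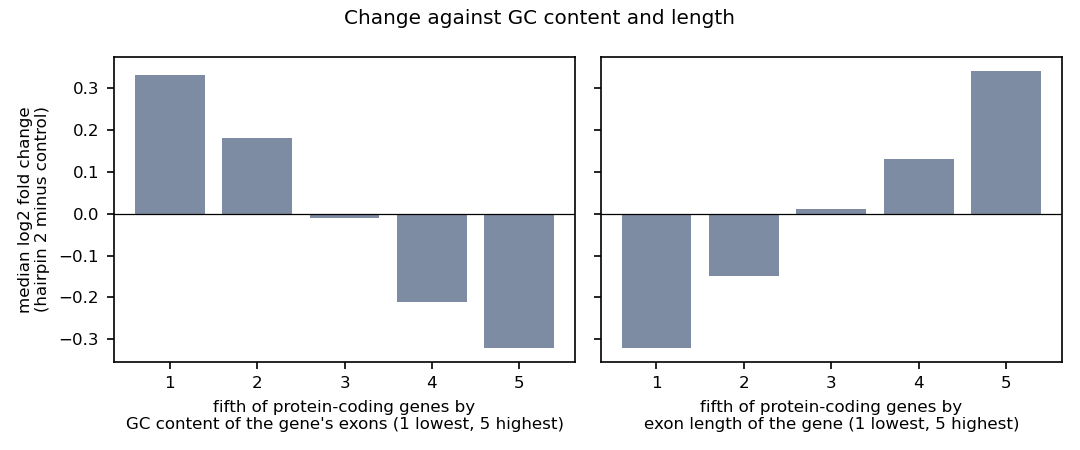
Bars give the median log2 fold change (hairpin 2 minus control) of protein-coding genes in 5 bins of equal size. Bins are by GC content (left) and length (right) of the exons in each gene's longest transcript. The medians run from 0.33 to −0.32 with rising GC content and from −0.32 to 0.34 with rising length.

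**Figure D2:**
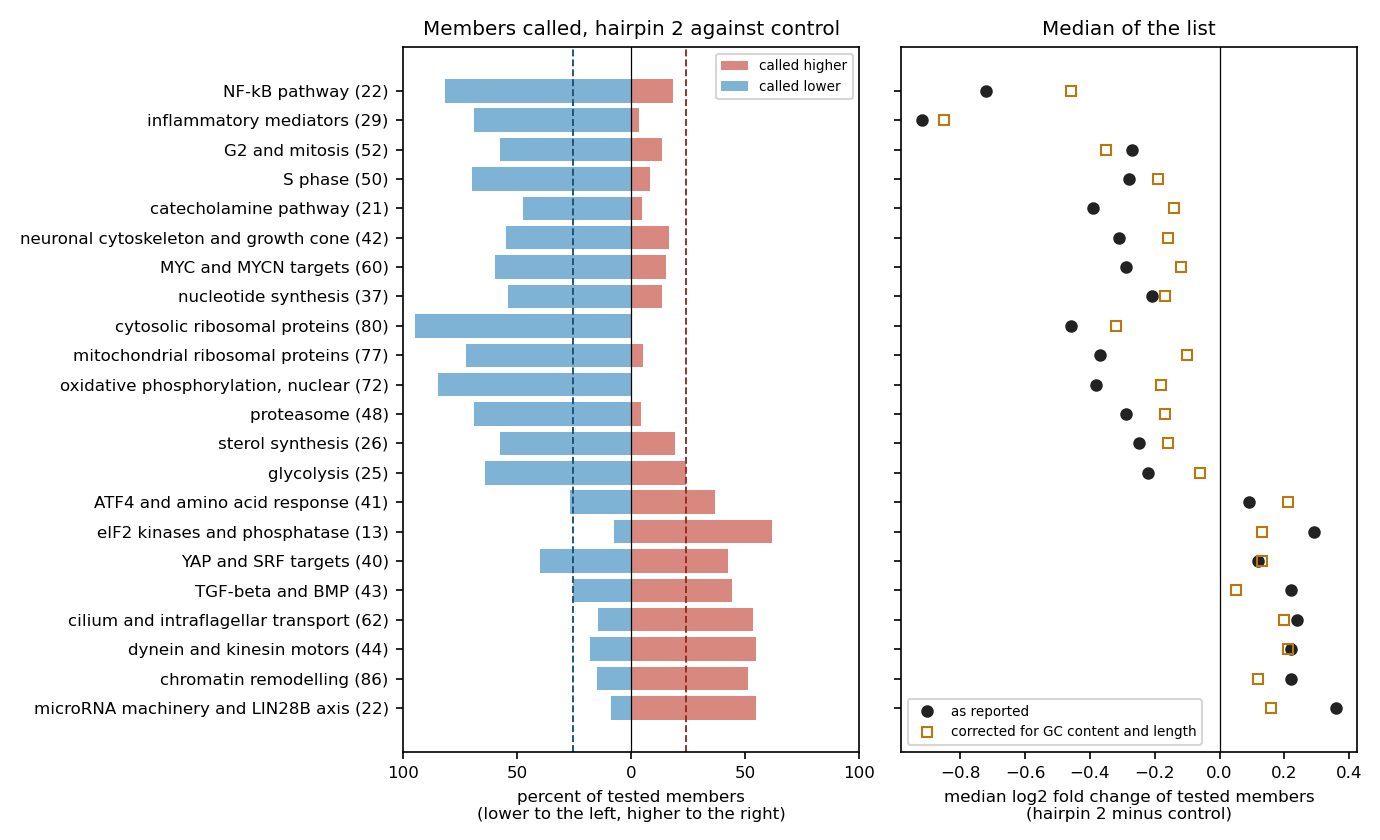
Left, bars give the percent of tested members of each gene list (number tested in brackets) that were called lower or higher with hairpin 2 against control, and dashed lines give the shares over all genes tested, 25.4% and 23.9%. Right, the median log2 fold change of each list as reported (filled) and corrected for GC content and length (open), which runs from −0.92 for inflammatory mediators to 0.36 for the microRNA machinery as reported.

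Genes of the NF-kB pathway were mostly lower with hairpin 2. NF-kB proteins are dimers built from RELA, RELB, REL, NFKB1 and NFKB2. They are held in the cytoplasm by inhibitors such as NFKBIA and switch on inflammatory genes once the IKK kinases free them. All 22 listed genes were tested, and 18 were lower and 4 higher with hairpin 2, with a median log2 fold change of −0.72 against −0.01 over all genes tested. After correction 14 were lower and 3 higher, with a median of −0.46. Against hairpin 1, 16 of the 22 were lower with hairpin 2 and 3 higher.

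NFKBIA, the inhibitor that NF-kB induces as its own feedback, was at 195 and 193 CPM in the controls and 58.9 and 60.7 CPM with hairpin 2. The groups were far apart, with a log2 fold change of −1.70 (SE 0.04, edgeR adjusted p = 1.6e-07) and of −1.32 after correction. With hairpin 1 NFKBIA stood between them, at 108 CPM in both libraries. NFKB2, the precursor of the p52 subunit, went from 210 and 189 CPM to 82.4 and 78.8 CPM (−1.31), and its partner RELB from 30.9 and 28.7 CPM to 12.4 and 12.6 CPM (−1.26). TNIP1, a ubiquitin-binding brake on the pathway, went from 130 and 132 CPM to 54.2 and 54.6 CPM (−1.26). For these 3 genes edgeR adjusted p-values ran from 8.2e-07 to 1.1e-05. With hairpin 1 they changed in the same direction, NFKB2 by −0.61, RELB by −0.63 and TNIP1 by −0.67.

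The core subunits differed among themselves. NFKB1 was at 101 and 91.4 CPM in the controls and 57.6 and 54.2 CPM with hairpin 2 (−0.78), whereas RELA, the main activating subunit, changed little, from 96.4 and 99.3 CPM to 79.7 and 83.6 CPM (−0.26, edgeR adjusted p = 0.0015, and −0.01 after correction). REL was one of the members that rose, from 4.84 and 5.38 CPM to 10.6 and 12.4 CPM (1.17, edgeR adjusted p = 0.0018). The kinases MAP3K14 (0.64) and CHUK (0.47), which activate the pathway, and the deubiquitinase CYLD (0.23), which restrains it, were the other members called higher. CHUK was no longer called after correction, where it stood at 0.11, and CYLD turned to −0.26. The CYLD call also ended without control replicate 1 or without hairpin 2 replicate 1, with a value of 0.21 in both cases. Outside the list BIRC3, an NF-kB target that ubiquitinates pathway proteins, went from 24.9 and 28.6 CPM to 14.7 and 15.7 CPM (−0.81), while hairpin 1 libraries held 46.2 and 47.1 CPM.

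The listed inflammatory mediators, many of them NF-kB targets, moved further. Of 35 listed genes 29 were tested, with 20 lower, 1 higher and a median of −0.92 (19 lower, 1 higher and −0.85 after correction). ICAM1, the adhesion receptor for leukocyte integrins, had the largest fall of the genes that met the naming rule, which asks for a mean of at least 5 CPM. Levels of 10.2 and 9.97 CPM in the controls compared with 1.31 and 1.52 CPM with hairpin 2, a fall of 7.13-fold (−2.83, SE 0.13, edgeR adjusted p = 2.8e-06). With hairpin 1 it was at 10.7 and 11.2 CPM, next to the controls, and the direct difference of hairpin 2 from hairpin 1 was −2.95 (SE 0.13, edgeR adjusted p = 9.3e-07).

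Other mediators fell beside it. The chemokine CCL2 went from 374 and 413 CPM to 66.7 and 62.3 CPM (−2.61), the cytokine IL32 from 37.4 and 34.3 CPM to 7.56 and 8.27 CPM (−2.18), and interleukin-1 beta (IL1B) from 15 and 13 CPM to 4.21 and 4.03 CPM (−1.76). With hairpin 1 they were lower than in control too, CCL2 by −2.32, IL32 by −1.64 and IL1B by −1.28. TNFRSF9, a costimulatory receptor outside the list, went from 15.7 and 17.2 CPM to 3.39 and 3.11 CPM (−2.34), and changed by −0.54 with hairpin 1. PTGS2, the inducible cyclooxygenase, went from 6.19 and 5.51 CPM to 2.75 and 2.29 CPM (−1.21), while both hairpin 1 libraries were above the controls at 20.6 and 18.6 CPM. IL6R, a receptor chain for interleukin-6, was the listed gene called higher (0.26, edgeR adjusted p = 0.024), a call that ended when either control replicate or hairpin 2 replicate 2 was left out (0.28, 0.24 and 0.19). In each of these genes both hairpin 2 libraries lay on the same side of both controls. Of the 5 leukocyte markers tested 3 were lower and 0 higher with hairpin 2, and after correction 1 was lower and 0 higher. Most of their summed level was CD68, as given above, and CD3E, LYZ, TYROBP and AIF1 were at 0 in all 4 libraries.

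**Figure D3:**
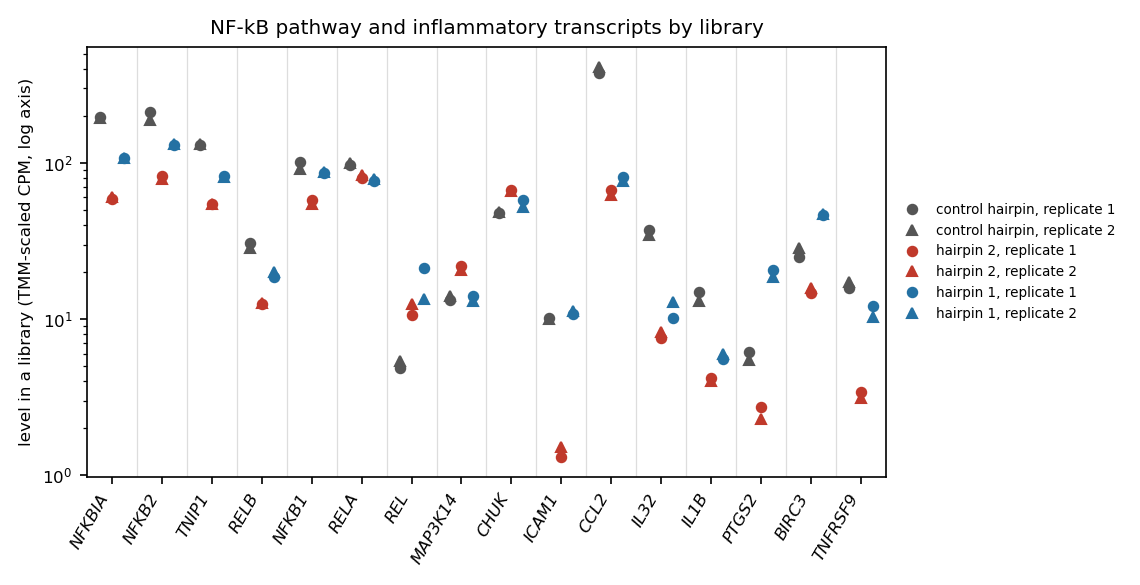
Points are levels in single libraries (TMM-scaled CPM, log axis) of NF-kB pathway and inflammatory genes with the control hairpin (grey), hairpin 2 (red) and hairpin 1 (blue). Hairpin 2 values of NFKBIA, at 58.9 and 60.7 CPM, and of ICAM1, at 1.31 and 1.52 CPM, lie below both other groups, and those of REL lie above the controls.

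Promoter sequences are shown for ICAM1, IL32 and NFKBIA, 3 falling genes, and for REL, which rose, because all hold the letters of an NF-kB motif close to their start. Sequences are the 250 bases before the RefSeq start (GRCh38.p14), read 5′ to 3′ on the gene's strand, at chr19:10270870-10271119 on the plus strand for ICAM1, chr16:3065153-3065402 on the plus strand for IL32, chr14:35404750-35404999 on the minus strand for NFKBIA and chr2:60881324-60881573 on the plus strand for REL. Capitals mark GGNNTTTCC on either strand.
ICAM1: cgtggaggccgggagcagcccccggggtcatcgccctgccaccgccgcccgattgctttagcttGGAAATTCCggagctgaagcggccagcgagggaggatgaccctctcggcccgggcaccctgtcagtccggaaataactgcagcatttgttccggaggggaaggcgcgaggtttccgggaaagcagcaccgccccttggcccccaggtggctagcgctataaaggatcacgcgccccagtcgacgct
IL32: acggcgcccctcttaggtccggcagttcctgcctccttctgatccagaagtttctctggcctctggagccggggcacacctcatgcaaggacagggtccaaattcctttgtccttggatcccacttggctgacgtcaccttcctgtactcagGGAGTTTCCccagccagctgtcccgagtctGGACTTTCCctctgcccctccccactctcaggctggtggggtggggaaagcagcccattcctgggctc
NFKBIA: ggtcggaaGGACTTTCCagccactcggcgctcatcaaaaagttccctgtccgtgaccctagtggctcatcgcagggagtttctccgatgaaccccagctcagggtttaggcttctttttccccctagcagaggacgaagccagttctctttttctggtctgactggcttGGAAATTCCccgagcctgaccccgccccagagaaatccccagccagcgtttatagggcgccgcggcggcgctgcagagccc
REL: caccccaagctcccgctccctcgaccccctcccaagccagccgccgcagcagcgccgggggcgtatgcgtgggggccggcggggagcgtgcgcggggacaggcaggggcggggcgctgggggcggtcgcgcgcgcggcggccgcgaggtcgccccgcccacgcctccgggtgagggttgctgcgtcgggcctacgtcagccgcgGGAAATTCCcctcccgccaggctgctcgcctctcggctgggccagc

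The motif begins 186 bases before the start in ICAM1, 98 and 68 bases before it in IL32, 242 and 81 bases before it in NFKBIA and 46 bases before it in REL. Promoters of 300 bases (250 before to 50 after the start) could be matched by symbol for 12088 of the tested genes, and 6.53% of these held the motif. It was present in 7 of the 19 matched promoters of the NF-kB pathway list and in 10 of the 23 of the inflammatory list. Among members called lower it was present in 6 of 15 in each list, so it was no more frequent in the inflammatory genes that fell than in that list as a whole. The shares were 7.46% among all genes called lower and 6.26% among all called higher. A match describes letters and not binding, and the motif was also present in REL, which rose. Exons of ICAM1, IL32 and REL overlap other annotated genes, so a part of their reads is uncertain.

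Cell cycle genes fell with hairpin 2. The list of genes of G2 and mitosis had 30 of 52 members lower and 7 higher (median −0.27), and after correction 42 were lower and 1 higher (median −0.35). MYBL2 and FOXM1, the transcription factors that switch on the mitotic programme, led the list. MYBL2 went from 245 and 242 CPM to 97.4 and 101 CPM (−1.30, SE 0.04, edgeR adjusted p = 7.2e-07) and FOXM1 from 325 and 317 CPM to 153 and 151 CPM (−1.08, SE 0.04, edgeR adjusted p = 1.1e-06). With hairpin 1 both stood slightly above the controls, MYBL2 at 284 and 289 CPM and FOXM1 at 350 and 356 CPM.

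CDC25B, the phosphatase that starts mitosis, went from 212 and 208 CPM to 109 and 110 CPM (−0.94), and CENPA, the centromeric histone, from 73 and 76.7 CPM to 40.7 and 40.5 CPM (−0.88). The mitotic kinases AURKB (−0.83) and PLK1 (−0.57) fell as well. Some members rose. ANLN, a scaffold of the cleavage furrow, rose by 0.52 and stayed higher after correction at 0.21. The kinesins KIF14 (0.44) and CENPE (0.34) and the spindle protein ASPM (0.34) stood at −0.03, −0.20 and −0.23 after correction, the last 2 called lower. Against hairpin 1, 47 of the 52 genes were lower with hairpin 2 and 1 was higher, against 23.3% and 22.9% over all genes.

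Genes of S phase moved in the same way, with 35 of 50 lower and 4 higher (median −0.28; 30 lower, 2 higher and −0.19 after correction). Among them were the clamp loader subunit RFC2 (−0.67), GINS2 of the replicative helicase (−0.63), the transcription factor E2F2 (−0.60) and the origin licensing factor CDT1 (−0.59), with edgeR adjusted p-values from 1.4e-05 to 0.00012. E2F3 rose, from 47.8 and 51.4 CPM to 76.1 and 79.9 CPM (0.65), as did RFC1 (0.43). Against hairpin 1, 36 S phase genes were lower with hairpin 2 and 4 higher. In the list of D-type cyclins, their kinases and their inhibitors, 10 of 21 members were higher and 9 lower (7 and 4 after correction). Cyclin D3 (CCND3) went from 59.5 and 60.8 CPM to 28.7 and 31.5 CPM (−1.0), and stood at 59.1 and 59.8 CPM with hairpin 1. The retinoblastoma gene RB1 (0.71) and its relative RBL1 (0.79), which hold E2F factors in check, were higher and stayed so after correction. CDK6, a kinase that cyclin D activates, was at 141 and 146 CPM in the controls, 189 and 178 CPM with hairpin 2 (0.36, and −0.19 after correction) and 59 and 60.8 CPM with hairpin 1.

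Several genes that make, store and release catecholamines fell. In the catecholamine list 10 of 21 tested members were lower and 1 higher (median −0.39; 9 lower, 4 higher and −0.14 after correction). Chromogranin A (CHGA), the core protein of chromaffin granules, went from 184 and 207 CPM to 52.1 and 60.4 CPM (−1.80, SE 0.09, edgeR adjusted p = 3.6e-06). DBH, which turns dopamine into noradrenaline, went from 38.2 and 36.9 CPM to 16.5 and 13.7 CPM (−1.31), and chromogranin B (CHGB) from 129 and 126 CPM to 79.2 and 69 CPM (−0.78). Hairpin 1 libraries held more of both than the controls, 76.4 and 76.3 CPM of DBH and 304 and 311 CPM of CHGB. TH, the rate-limiting enzyme of catecholamine synthesis, went from 28.2 and 27.3 CPM to 17.1 and 19.3 CPM (−0.61, edgeR adjusted p = 0.00032), a call that ended after correction at −0.14. CPE, the carboxypeptidase that trims prohormones, was the member called higher (0.45).

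Other genes of the neuronal lineage were divided. SLC18A3, the vesicular acetylcholine transporter and a member of no list, went from 29.2 and 25.5 CPM to 6.96 and 7.19 CPM (−1.95), with 36.5 CPM in each hairpin 1 library. The adrenergic transcription factors INSM2 (−1.20), LMO1 (−0.93) and PHOX2A (−0.70) fell, and the T-box factor TBX20 rose from 3.99 and 5.51 CPM to 18.2 and 17.3 CPM (1.90). In the whole adrenergic list 12 of 23 tested members were lower and 6 higher (median −0.15; 9 lower, 7 higher and 0.03 after correction). Synaptic vesicle genes were mixed, with 13 of 40 higher and 11 lower, and 7 higher and 11 lower after correction. SYN1 (−0.89), SV2A (−0.87) and SYP (−0.74) fell, and SV2C (1.09) rose. SYT4, a calcium-sensor relative of vesicle membranes, was slightly lower than in control (15.4 and 14.7 CPM to 12.1 and 11.8 CPM, −0.33) and far below the 73 and 74.1 CPM of hairpin 1.

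The neuronal cytoskeleton list had 23 of 42 members lower and 7 higher (median −0.31; 20 lower, 8 higher and −0.16 after correction), and 30 were lower than with hairpin 1 and 5 higher. BASP1, a membrane protein of growth cones, went from 182 and 178 CPM to 66.6 and 67.1 CPM (−1.43), and MARCKSL1, an actin-regulating membrane protein, from 158 and 145 CPM to 73.4 and 77.5 CPM (−1.0). The tubulin TUBB4B changed by −0.88. Among the members that rose were the membrane scaffold ANK2, from 66.2 and 66.5 CPM to 130 and 126 CPM (0.95), and the microtubule protein MAP1B (0.58). MAP2, a dendritic microtubule protein, was at 55.3 and 55.9 CPM in the controls, 69.8 and 72.4 CPM with hairpin 2 and 182 CPM in each hairpin 1 library. Its rise of 0.36 with hairpin 2 turned to −0.11 after correction.

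**Figure D4:**
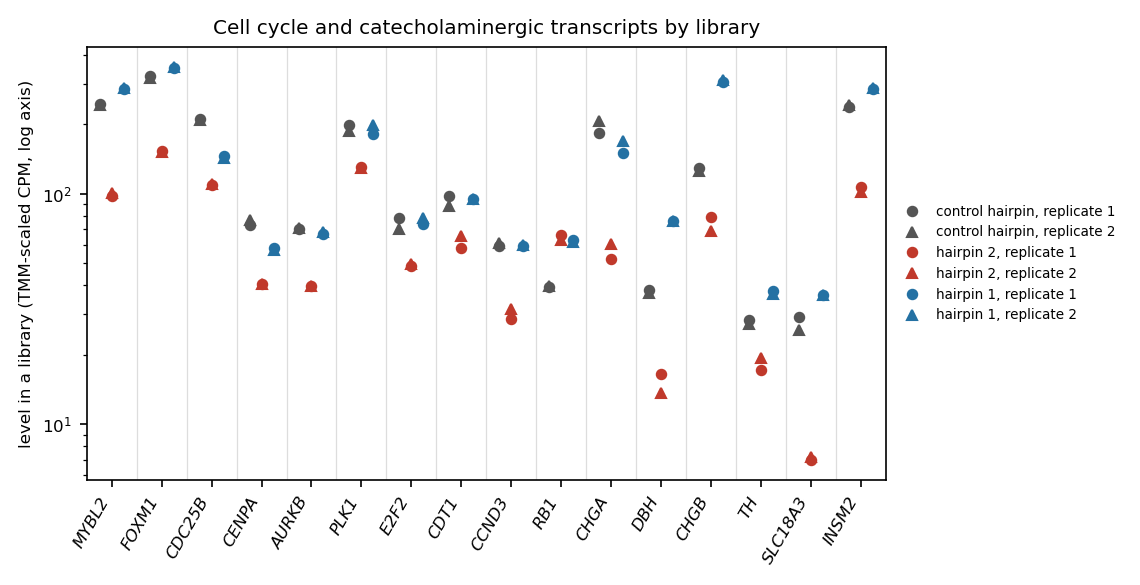
Points are levels in single libraries (TMM-scaled CPM, log axis) of cell cycle genes (MYBL2 to RB1) and catecholaminergic genes (CHGA to INSM2), coloured by hairpin. Hairpin 2 values of MYBL2, at 97.4 and 101 CPM, and of DBH, at 16.5 and 13.7 CPM, lie below the controls, and hairpin 1 values lie above them.

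Targets of MYC and MYCN were lower in 36 of 60 cases and higher in 9 (median −0.29; 28 lower, 9 higher and −0.12 after correction), and 31 were lower than with hairpin 1 and 4 higher. NME1, a nucleoside diphosphate kinase, went from 329 and 326 CPM to 147 and 132 CPM (−1.23), SRM, which makes spermidine, from 184 and 176 CPM to 77.4 and 80.3 CPM (−1.19), and AHCY, which clears S-adenosylhomocysteine, from 313 and 315 CPM to 152 CPM in each library (−1.05). With hairpin 1 SRM was higher than in control, at 200 and 207 CPM, and AHCY, at 291 and 299 CPM, lay below both controls without passing the test (−0.09, edgeR adjusted p = 0.076). PA2G4, a growth-regulated RNA-binding protein, changed by −0.77. Members that rose included the ribosome assembly factor UTP20 (0.62) and the helicase DDX21 (0.38), while in the separate ribosome biogenesis list 22 of 57 members were lower and 13 higher (19 lower and 6 higher after correction). ODC1, the polyamine enzyme that is a classical MYC target, was at 415 and 408 CPM in the controls and 442 and 454 CPM with hairpin 2 (0.12, edgeR adjusted p = 0.032), a call that ended when any of the 4 libraries was left out (0.10 to 0.14). Of 37 nucleotide synthesis genes 20 fell and 5 rose (median −0.21; also 20 lower and 5 higher, and −0.17, after correction), among them thymidine kinase TK1 (−0.88), APRT (−0.84) and IMPDH2 (−0.73). RRM2B, the p53-inducible ribonucleotide reductase subunit, went the other way, from 14.4 and 14.6 CPM to 30.4 and 30.3 CPM (1.07).

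Within the MYC and MAX network, MXD3, a repressive partner of MAX, went from 30.9 and 24.7 CPM to 12.8 and 12.2 CPM (−1.15), MAX changed by −0.31, and MGA, a MAX partner that represses E2F and MYC targets, rose from 49 and 49.4 CPM to 80.3 and 80.2 CPM (0.71). After correction the values were −0.73, −0.19 and 0.20. The E-box CACGTG, the core site of MYC and MAX, was present in 22 of 51 matched promoters of the target list and in 9.93% of all matched promoters. Among all genes called lower it was in 10.5% and among those called higher in 10.4%.

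The response to amino acid shortage, in which the kinases of eIF2 raise translation of the transcription factor ATF4, was uneven. Of 41 tested members of the ATF4 list 15 were higher and 11 lower (median 0.09; 21 higher, 5 lower and 0.21 after correction). SLC7A11, the cystine importer, went from 25.3 and 26 CPM to 170 and 163 CPM (2.70, SE 0.05, edgeR adjusted p = 9.2e-08). It was at 151 and 146 CPM with hairpin 1 (2.54). ALDH1L2, a mitochondrial folate enzyme, went from 49 and 52.8 CPM to 104 and 99 CPM (0.99), and the glutamine transporter SLC38A2 (0.64) and ATF3 (0.69) also rose. In the list of eIF2 kinases and phosphatase subunits 8 of 13 members were higher and 1 lower (7 higher, 4 lower and a median of 0.13 after correction, from 0.29), and EIF2AK3, the kinase PERK, went from 14.2 and 15 CPM to 31.2 and 30.2 CPM (1.07). ATF4 mRNA itself was at 441 and 443 CPM in the controls and 425 and 429 CPM with hairpin 2 (−0.05, edgeR adjusted p = 0.30), and after correction it was called higher at 0.35.

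Some classical members of the list fell with hairpin 2. CEBPB, a partner of ATF4, went from 131 and 112 CPM to 78.4 and 66.6 CPM (−0.75), and EIF4EBP1, a brake on cap-dependent translation, from 179 and 170 CPM to 98.2 and 102 CPM (−0.80). DDIT4, an inhibitor of mTORC1, was at 172 and 173 CPM in the controls, 124 and 127 CPM with hairpin 2 (−0.46, and 0.01 after correction) and 236 and 225 CPM with hairpin 1. Compared directly, 29 of the 41 genes were lower with hairpin 2 than with hairpin 1 and 4 were higher. Aminoacyl-tRNA synthetases showed the same difference, with 14 of 22 lower than with hairpin 1 and 1 higher, though 9 of the 22 rose against control and 6 fell (10 and 3 after correction). EPRS1 (0.62) and WARS1 (0.47) were among those that rose.

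Enzymes that break down branched-chain amino acids changed in both directions, with 11 of 27 higher and 8 lower (median 0.09; 9 higher, 4 lower and 0.07 after correction). MCCC1, a subunit of the leucine pathway enzyme methylcrotonyl-CoA carboxylase, went from 29.9 and 29.6 CPM to 55.7 and 56.7 CPM (0.92), while its partner subunit MCCC2 went from 71.7 and 72.8 CPM to 48 and 52 CPM (−0.53). With hairpin 1 the pair lay the other way around, MCCC1 at 24.6 and 25.2 CPM and MCCC2 at 102 and 101 CPM. DBT, the transacylase core of the keto acid dehydrogenase, rose by 0.78 and BCKDK, the kinase that inactivates that complex, changed by −0.69. ALDH6A1, an enzyme of valine breakdown, rose by 0.85.

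Most measured genes of the ribosome, the respiratory chain and the proteasome were lower, most evenly so for cytosolic ribosomal proteins. Of 80 cytosolic ribosomal protein genes 76 were lower and 0 higher (median −0.46; 57 lower, 4 higher and −0.32 after correction), and RPL29 had the largest fall among members that met the naming rule, from 526 and 507 CPM to 231 and 241 CPM (−1.13). Against hairpin 1, 25 of the 80 were lower with hairpin 2 and 13 higher. Mitochondrial ribosomal proteins were lower in 56 of 77 cases and higher in 4 (median −0.37), and after correction in 34 and 9 (median −0.10). MRPL11 was at 104 and 102 CPM in the controls and 43.1 and 43.2 CPM with hairpin 2 (−1.25). Because ribosomal protein genes have pseudogene copies, their reads may be split between loci.

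Nuclear genes of oxidative phosphorylation were lower in 61 of 72 cases and higher in 0 (median −0.38), and after correction 37 were lower and 4 higher (median −0.18). UQCR10, a small subunit of complex III, had the largest fall in the list. It went from 102 and 93.9 CPM to 25.7 and 26.5 CPM (−1.91, SE 0.06, edgeR adjusted p = 6.7e-07), and was at 99.8 and 105 CPM with hairpin 1. Of the 13 messages encoded by mitochondria 4 were lower, as for MT-CO2 (−0.45), and 2 higher, as for MT-ND5 (0.38), whereas after correction 2 were lower and 5 higher. Replicates of these messages differed, with sums of 22700 and 26600 CPM in the controls and 21500 and 23800 CPM with hairpin 2. Their median log2 ratio ran from −0.3 to 0.2, depending on which hairpin 2 library was set against which control. Among 48 proteasome genes 33 were lower and 2 higher (median −0.29; 28 lower, 3 higher and −0.17 after correction). The ATPase subunit PSMC1 went from 253 and 248 CPM to 99 and 102 CPM (−1.31), against 202 and 206 CPM with hairpin 1, and PSME2, an activator subunit, changed by −0.91.

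Several of the leading falls belonged to no list or to a list that did not move with them. TMEM109, a membrane protein of the endoplasmic reticulum and nuclear envelope, went from 161 and 152 CPM to 40 and 39.8 CPM (−1.97, SE 0.05, edgeR adjusted p = 1.6e-07), with 160 and 165 CPM under hairpin 1, a difference between hairpins of −2.03 (SE 0.05, edgeR adjusted p = 1.2e-07). RERG, a small GTPase that restrains growth, went from 5.24 and 4.54 CPM to 1.59 and 1.44 CPM (−1.69), and stood at 8.28 and 9.52 CPM under hairpin 1. LRRC55, an auxiliary subunit of potassium channels, fell to 7.43 and 7.14 CPM from 31.9 and 36.3 CPM (−2.23), near its 8.36 and 8.78 CPM under hairpin 1, and the zinc importer SLC39A1 changed by −1.39. The falls of TMEM109 and RERG against control were thus not shared by hairpin 1, and that of LRRC55 was.

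The leading rises included genes of the cytoskeleton and membranes. MAP9, a microtubule protein of the spindle, went from 8.73 and 9.32 CPM to 36 and 31.7 CPM (1.91), FCHO2, which starts clathrin-coated pits, from 3.23 and 3.3 CPM to 10.6 and 11.6 CPM (1.77), and TP53INP1, a p53 target that promotes autophagy, from 7.01 and 7.65 CPM to 24.6 and 26.1 CPM (1.79). The zinc transporter SLC39A10 rose by 1.24. LMLN, a metallopeptidase, went from 2.8 and 2.46 CPM to 12.9 and 14.1 CPM (2.36), and POMK, a kinase of dystroglycan sugars, from 2.3 and 2 CPM to 10.8 and 8.71 CPM (2.18). In the p53 list as a whole 10 of 36 members were higher and 11 lower, and 12 and 5 after correction. ZMAT3 (0.97) and MDM2 (0.76) rose, and BAX, the pore-forming death protein, changed by −0.46 and was no longer called after correction at 0.07. A few leading changes rested on controls that were far apart. LCOR was at 14.2 and 1.78 CPM in the controls, CHIC1 at 2.01 and 8.78 CPM, RICTOR at 3.83 and 10.9 CPM and the splicing factor PRPF31 at 26.5 and 12.8 CPM, so their changes (2.08, 2.03, 1.92 and −2.05) have standard errors of 0.62, 0.47, 0.36 and 0.41. The LCOR call (edgeR adjusted p = 0.022) ended without either hairpin 2 library (2.02 and 2.13) and in DESeq2.

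Targets of YAP and SRF, transcriptional regulators that respond to cell shape and the actin cytoskeleton, were split against control and mostly higher than with hairpin 1. Of 40 tested members 17 were higher and 16 lower than in control (median 0.12; 17 higher, 7 lower and 0.13 after correction), whereas 22 were higher and 6 lower than with hairpin 1. CCN2, a matricellular protein that is a standard YAP target, was at 3.76 and 4 CPM in the controls and 28.1 and 31.2 CPM with hairpin 2 (2.93, SE 0.11, edgeR adjusted p = 1.2e-06), and at 1.65 and 1.63 CPM with hairpin 1. Its relative CCN1 went from 23.6 and 26.2 CPM to 46.2 and 44.7 CPM (0.86), with 5.52 and 5.76 CPM under hairpin 1. The nuclear ankyrin-repeat protein ANKRD1 went from 5.66 and 6.3 CPM to 11.7 and 11.6 CPM (0.96) and smooth muscle actin, ACTA2, from 30 and 31.5 CPM to 59 and 63.3 CPM (0.99), where hairpin 1 libraries held 1.08 and 0.924 CPM of ANKRD1 and 6.68 and 5.95 CPM of ACTA2. LATS2, the kinase that restrains YAP, rose by 1.11. Genes that fell were the actin-associated TAGLN2 (−0.85) and ZYX (−0.68) and the YAP partner TEAD4 (−0.75), the last no longer called after correction at −0.25.

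LBH, a regulator of transcription in development, had the largest rise of the genes chosen by that naming rule. Levels were 1.35 and 1.19 CPM in the controls, 12.4 and 12.1 CPM with hairpin 2 and 0.49 and 0.431 CPM with hairpin 1. Against control the rise was 9.65-fold (3.27, SE 0.15, edgeR adjusted p = 2.8e-06), and between hairpins the difference was 4.72 (SE 0.17, edgeR adjusted p = 3.7e-07). The vasodilator peptide ADM, the BMP-binding membrane protein CRIM1 and the kinase ALPK2 had the same order of groups. ADM was at 34.2 and 33 CPM in the controls, 64 and 67.9 CPM with hairpin 2 and 9.72 and 9.61 CPM with hairpin 1. Haem oxygenase HMOX1 also lay above control with hairpin 2 (82.7 and 84.2 CPM against 138 and 145 CPM, 0.76) and below it with hairpin 1 (58.4 and 59.4 CPM).

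Matrix genes were divided. Of 59 tested collagen and matrix remodelling genes 23 were lower and 16 higher than in control (25 and 16 after correction), while 32 were higher and 14 lower than with hairpin 1. TGM2, a protein-crosslinking transglutaminase, went from 165 and 158 CPM to 33.8 and 32.6 CPM (−2.28), and the plasminogen activators PLAU (45.1 and 47.5 CPM to 19.2 and 20.4 CPM, −1.23) and PLAT (215 and 220 CPM to 97.8 and 99.3 CPM, −1.14) and the basement membrane protein NID1 (−1.19) fell too. With hairpin 1 TGM2 (−2.6), PLAU (−2.54) and NID1 (−0.66) were also lower than in control, and PLAT (−0.14) was not called. The collagenase MMP1, outside the list, went from 58.9 and 60.7 CPM to 23.6 and 25.2 CPM (−1.29), and was at 138 and 152 CPM with hairpin 1. In the mesenchymal list 19 of 41 members were lower and 8 higher (median −0.13; 19 lower, 4 higher and −0.16 after correction). ITGA5, the fibronectin receptor chain, went from 95.9 and 89.1 CPM to 35.2 and 32 CPM (−1.46) and the galectin LGALS1 from 942 and 968 CPM to 435 and 402 CPM (−1.19). Thrombospondin 1 (THBS1) rose, from 243 and 251 CPM to 476 and 455 CPM (0.91), as did TIMP2, an inhibitor of matrix proteases (0.44), and hairpin 1 libraries held less of both than the controls, at 95.2 and 93.2 CPM and 576 and 600 CPM. Other genes had the opposite order. The stromelysin MMP10 was at 4.55 and 4.27 CPM in the controls, 2.95 and 2.78 CPM with hairpin 2 (−0.62) and 15.6 and 15.7 CPM with hairpin 1. The adenosine receptor ADORA2A was at 12.7 and 10.6 CPM, 8.35 and 6.68 CPM (−0.63, edgeR adjusted p = 0.02) and 64 and 46.2 CPM, and its call against control ended after correction (−0.28), in limma-voom (adjusted p = 0.07) and without control replicate 1 (−0.49) or hairpin 2 replicate 2 (−0.47).

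**Figure D5:**
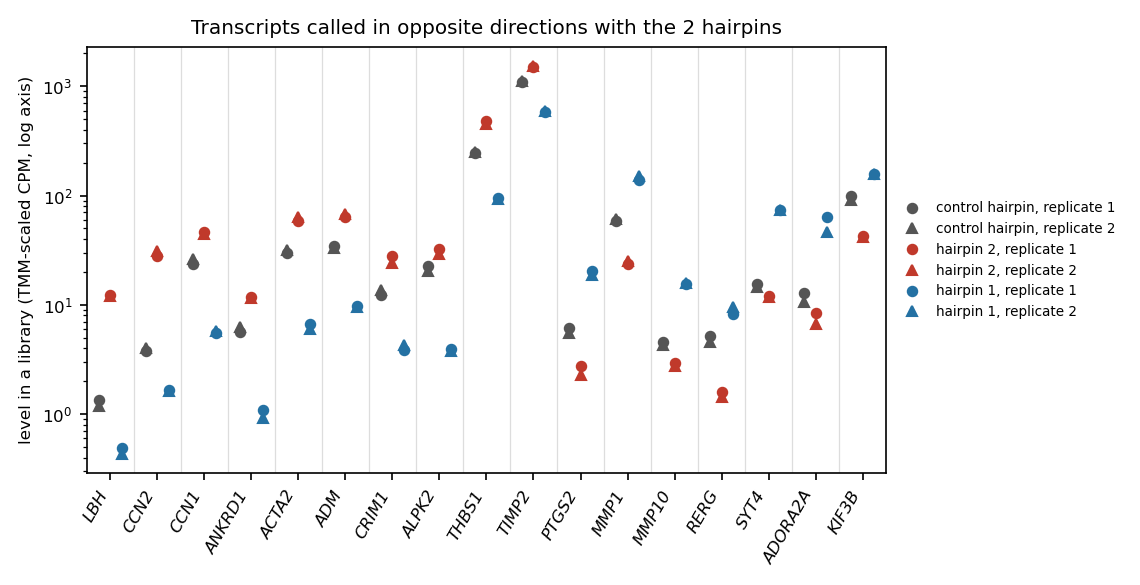
Points are levels in single libraries (TMM-scaled CPM, log axis) of genes that passed in edgeR in opposite directions with hairpin 2 (red) and hairpin 1 (blue) against control (grey). From LBH to TIMP2 hairpin 2 values lie above the controls and hairpin 1 values below, as for CCN2 at 28.1 and 31.2 CPM against 1.65 and 1.63 CPM, and from PTGS2 to KIF3B the order is turned around.

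Genes of TGF-beta and BMP signalling were higher in 19 of 43 cases and lower in 11 (median 0.22; 16 higher, 13 lower and 0.05 after correction). The receptors BMPR2 (86.5 and 98.5 CPM to 188 and 176 CPM, 0.98) and TGFBR2 (0.65) and the ligand TGFB2 (0.92) rose, and the target TGFBI, a matrix protein, went from 13.3 and 13.6 CPM to 6.09 and 5.91 CPM (−1.16). In the Wnt list 16 of 46 members were higher and 14 lower (16 and 12 after correction). The receptor FZD1 rose from 13.1 and 14.4 CPM to 34.7 and 33.7 CPM (1.31), while NOTUM (−1.53), TCF7 (−1.16) and the stem cell receptor LGR5 (−1.01), which are commonly induced by Wnt, fell. With hairpin 1 TCF7 changed by −0.40, and NOTUM and LGR5, both at −0.07, were not called.

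Interferon-stimulated genes were balanced, with 11 of 44 higher and 10 lower, near the background, and 13 higher and 13 lower after correction. IFIT1 (1.10) and IFIT2 (0.91), which bind foreign RNA, rose, and IFI35 (−1.33) fell. Exons of IFIT2 overlap those of LIPA, the lysosomal acid lipase, which went from 111 and 115 CPM to 42.8 and 46.1 CPM (−1.35) and was at 135 and 136 CPM with hairpin 1, so reads of both are uncertain in part. Antigen presentation and natural killer ligand genes were lower in 14 of 27 cases and higher in 4 (median −0.46; 11 lower, 5 higher and −0.29 after correction). CD47, which signals to macrophages not to engulf a cell, changed by −0.77, and NCR3LG1, which natural killer cells recognize, rose from 5.47 and 5.21 CPM to 16.4 and 16 CPM (1.60).

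Among lysosomal and autophagy genes 26 of 61 were lower and 17 higher, and after correction 21 and 19. PPT1, a lysosomal thioesterase, went from 247 and 244 CPM to 123 and 124 CPM (−0.99), with 256 and 250 CPM under hairpin 1, and the autophagy protein WIPI1 (1.09) and the sulfatase IDS (1.08) rose. Sterol synthesis genes were lower in 15 of 26 cases and higher in 5 (median −0.25; 13 lower, 4 higher and −0.16 after correction). Single members went both ways: HMGCS1 (0.57), of an early step, rose, and DHCR7 (−0.88), of the last step, fell. An order by step of the pathway was not tested. INSIG1, the protein that holds the sterol sensor in the endoplasmic reticulum, went from 81.4 and 87.9 CPM to 39.1 and 40.3 CPM (−1.09) and was at 94.9 and 103 CPM with hairpin 1. Glycolysis genes were lower in 16 of 25 cases and higher in 6 (11 and 4 after correction), and genes of the unfolded protein response were lower in 17 of 33 cases and higher in 7 (21 lower and 6 higher after correction).

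Lists of cilia, motors, chromatin and small RNA silencing had more members higher than lower. Cilium and intraflagellar transport genes were higher in 33 of 62 cases and lower in 9 (median 0.24; 29 higher, 10 lower and 0.20 after correction), and 31 were higher than with hairpin 1 and 9 lower. DYNC2H1, the motor that carries cargo back from the ciliary tip, went from 19.8 and 20.9 CPM to 50.7 and 48.6 CPM (1.29), and RPGRIP1L, a protein of the ciliary gate, from 11.6 and 13.1 CPM to 29 and 29.2 CPM (1.24) with 11.9 and 12.9 CPM under hairpin 1. CEP290, also of the gate, rose by 1.17. KIF3B, a subunit of the motor that moves towards the tip, went against its list, from 99.4 and 91 CPM to 43 and 41.9 CPM (−1.17), and was at 158 CPM in each hairpin 1 library.

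Dynein and kinesin genes were higher in 24 of 44 cases and lower in 8 (median 0.22; 22 higher, 7 lower and 0.21 after correction). The light chains DYNLRB1 (23.7 and 26 CPM to 88.6 and 88 CPM, 1.83) and DYNLL2 (50.2 and 51.3 CPM to 126 and 116 CPM, 1.26) and the kinesin KIF21A (1.13) rose, and the dynactin subunit DCTN5 changed by −0.65. Of 86 chromatin remodelling genes 44 were higher and 13 lower (median 0.22), but after correction 37 were higher and 24 lower (median 0.12). ATRX, a remodeller of heterochromatin, went from 55 and 59.9 CPM to 128 and 117 CPM (1.09). KMT2E (0.98) and the histone methyltransferase gene KMT2D (0.86) rose, while CBX2, a Polycomb subunit, changed by −1.02. The microRNA machinery list was higher in 12 of 22 cases and lower in 2 (median 0.36; 10 higher, 4 lower and 0.16 after correction), with TNRC6C (1.07) and AGO1 (0.75) among the rises and HMGA1, a let-7 target, among the falls (−0.57).

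Dioxygenases that use alpha-ketoglutarate, the substrate shared with BCAT1, were higher in 20 of 53 cases and lower in 17 (median 0.04; 25 higher, 11 lower and 0.14 after correction). The histone demethylase KDM7A went from 12 and 14.2 CPM to 30.7 and 29.5 CPM (1.20) and the DNA demethylase TET2 from 15.7 and 17.9 CPM to 33.6 and 31.5 CPM (0.96). PLOD1, a collagen lysyl hydroxylase, went from 294 and 291 CPM to 126 and 121 CPM (−1.25). Whether reads were counted by strand is not given in the sources used here, so reads of a named gene whose exons overlap another annotated gene are uncertain in part. This applies to BCAT1, MYCN, MXD3, MGA, MAX, MCCC1, ALDH6A1, DBT, REL, MAP3K14, CHUK, CYLD, RELA, ICAM1, IL32, FOXM1, CENPA, ANLN, GINS2, CCND3, RBL1, CDK6, PLK1, DBH, PHOX2A and SYN1. It also applies to SYP, SV2C, BASP1, TUBB4B, NME1, AHCY, PA2G4, IMPDH2, SLC7A11, ALDH1L2, CEBPB, DDIT4, EIF2AK3, WARS1, MRPL11, PSMC1, PSME2, HMGCS1, LIPA, PPT1, WIPI1, IDS, CCN2, ACTA2, ZYX and CRIM1. The remaining genes with such an overlap are ALPK2, TGM2, PLAU, THBS1, TIMP2, ITGA5, MMP1, TGFB2, LGR5, TCF7, IFIT2, CEP290, DCTN5, KMT2E, KMT2D, TNRC6C, AGO1, MAP9, MDM2, TMEM109, LMLN, RICTOR, PRPF31, SLC39A1 and ADORA2A.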

How the data were processed

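Bulk RNA-seq of SK-N-BE(2) cells gave 1 table of raw gene counts, deposited by the authors, with 2 libraries for each of 3 hairpins. The submitters' processing notes name HISAT2 2.2.0, StringTie and hg38; for the annotation release and strand setting the sources used here give nothing. Counts were tested with edgeR 4.0.16 (R 4.3.3), quasi-likelihood test, TMM scaling, filterByExpr with a minimum count of 10, and Benjamini-Hochberg adjustment over 18734 of 64252 rows. All 6 libraries shared the estimate of the spread, which has 3 residual degrees of freedom. The test was tested on simulated data. GC content and length were those of each gene's longest transcript in the annotation. For the corrected values a spline trend of each library on both, over 13907 protein-coding genes, was used as an offset. Alternatives were DESeq2 1.42.0, limma 3.58.1 (voom), other filters and scalings, a replicate block, a fold threshold and leaving out libraries.

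Named genes are BCAT1, MYCN and BCAT2, the 15 largest rises and falls, up to 4 rises and 4 falls per list, and the 8 largest differences between hairpins in each direction, among genes called, with a mean of at least 5 CPM and groups that do not overlap. Central regulators were added, and fewer genes are described than the rule names; some of those it names are not reported here. The comparison and the gene lists were chosen with earlier results of these data known. Of the list entries 6 did not match the table. Replicates of a group differed by more than sampling noise, with a chi-square per gene of 8.23 (control) and 5.73 (hairpin 2). Promoters are RefSeq sequences (GRCh38.p14).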

Additional observations from a re-analysis of the deposited data

Results flagged for a closer look

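In the following genes hairpin 2 and hairpin 1 were each called against the same controls but in opposite directions, and the direct edgeR test of hairpin 2 against hairpin 1 also passed. Values listed below are log2 differences, hairpin 2 minus hairpin 1, and the adjusted p-values of that test run from 8.5e-08 (THBS1) to 0.0014 (ODC1). The opposite directions are those without correction for GC content and length. After correction CDK6 was called lower with hairpin 2 than in control, at −0.19. For TH (−0.14), DDIT4 (0.01) and ADORA2A (−0.28) the call of hairpin 2 against control ended. The calls of IL6R and ODC1 against control ended when libraries were left out, as given above.

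Higher with hairpin 2 were the YAP and SRF targets CCN2 (4.17), ANKRD1 (3.53), ACTA2 (3.27) and CCN1 (3.01). The same order was seen for LBH (4.72), ALPK2 (2.98), ADM (2.77), CRIM1 (2.68), THBS1 (2.3) and TIMP2 (1.35). It was also seen for CDK6 (1.62), IFIT2 (1.54), HMOX1 (1.27), MCCC1 (1.17), ANLN (0.74), IL6R (0.53) and ODC1 (0.24).

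Lower with hairpin 2 were the catecholamine and vesicle genes SYT4 (−2.62), SLC18A3 (−2.37), DBH (−2.33), SYN1 (−2.29), CHGB (−2.05), SYP (−1.13) and TH (−1.03), and the adrenergic factors INSM2 (−1.46) and LMO1 (−1.28). Mitotic regulators MYBL2 (−1.53) and FOXM1 (−1.22) and the Polycomb gene CBX2 (−1.23) were lower too. Inflammatory and matrix genes were PTGS2 (−2.96), MMP1 (−2.57), MMP10 (−2.45) and BIRC3 (−1.62). The remaining genes were ADORA2A (−2.87), RERG (−2.55), KIF3B (−1.89), LIPA (−1.6), SRM (−1.37), INSIG1 (−1.32), DCTN5 (−1.06), MCCC2 (−1.02) and DDIT4 (−0.88).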

How the results depend on the processing

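The 9236 calls of hairpin 2 against control became 8249 in DESeq2, 9424 in limma-voom and 7216 to 8173 when 1 of the 4 libraries was left out, and no call changed direction under these. With a fold threshold of 1.5 there were 1397 calls (748 higher, 649 lower, 769 over 2-fold), and 1774 between hairpins (958, 816 and 1227). Correction for GC content and length gave 7147 calls: of 7998 calls with a corrected value, 5134 kept call and direction, and 326 were called the other way, and genes over 2-fold fell from 1387 to 669. Without correction the same protein-coding genes gave 978 over 2-fold, a comparison added after the data were seen. Corrected values of opposite sign were BCAT2 0.07, CYLD −0.26, KIF14 −0.03, CENPE −0.20, ASPM −0.23, CDK6 −0.19, MAP2 −0.11, ATF4 0.35, DDIT4 0.01 and BAX 0.07. The cause was not tested.

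Over all genes tested, replicate numbers showed no pairing of the libraries: deviations of same-numbered libraries correlated at −0.03, −0.01 and −0.01. Messages encoded by mitochondria made up 2.18% and 2.55% of counts in control replicates 1 and 2. These shares were 2.23% and 2.47% with hairpin 2 and 2.56% in each hairpin 1 library. Pairing limited to a part of the genes was not tested. A replicate block gave 8841 calls against control and 8218 between hairpins, and with the correction 7031 calls, 644 of them over 2-fold; the 10 corrected values above were then the same. Among the genes described, the block alone ended the call of ODC1. The number of libraries, 2 a group, and their depth limit what can be called among genes with few counts.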

Other observations

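The lists not described above are given here for hairpin 2 against control, beside 23.9% higher and 25.4% lower over all genes. Clustered protocadherins, adhesion proteins that give neurons distinct surfaces, were higher in 13 of 50 cases and lower in 2 (median 0.26). After correction 9 were higher and 3 lower (median 0.20). The share called higher, 26%, was near that over all genes. Summed levels were 713 and 721 CPM in the controls and 678 and 689 CPM with hairpin 2. Only 3 of the tested members have exons that overlap no other gene, so reads of most are uncertain in part. Circadian clock genes were higher in 11 of 23 cases and lower in 5 (median 0.15; 9 and 3 after correction). Of 17 tested HOX genes 4 were lower and 0 higher, and after correction 0 were lower and 5 higher. Nuclear pore and import genes went from 18 higher and 16 lower of 51 to 8 higher and 28 lower after correction. Voltage-gated ion channels were higher in 12 of 48 cases and lower in 10 against control (11 and 12 after correction), while against hairpin 1 they were higher in 4 and lower in 20. Receptors for neurotrophins and growth factors, 30 tested, were higher than in control in 10 cases and lower in 6 (7 and 9 after correction), and higher than with hairpin 1 in 17 cases and lower in 4. Serine and folate one-carbon genes, 25 tested, were balanced against control (7 higher, 7 lower; 6 and 9 after correction) and lower than with hairpin 1 in 17 cases and higher in 4.

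In metabolism the counts were 8 higher and 9 lower of 24 for glutamate and alpha-ketoglutarate metabolism (8 and 4 after correction), 3 higher and 10 lower of 22 for the tricarboxylic acid cycle (5 and 8 after correction) and 12 higher and 10 lower of 32 for fatty acid metabolism (10 and 10 after correction). They were 3 higher and 8 lower of 16 for polyamine metabolism (1 and 8 after correction), 9 higher and 4 lower of 25 for amino acid transporters (9 and 6 after correction) and 9 higher and 16 lower of 34 for glutathione and ferroptosis (7 and 11 after correction). For stress and growth signalling there were 13 higher and 13 lower of 35 for NRF2 targets (17 and 9 after correction), 13 higher and 16 lower of 41 for amino acid sensing by mTORC1 (14 and 9 after correction) and 11 higher and 7 lower of 29 for the hypoxia response (8 and 9 after correction). There were 6 higher and 11 lower of 32 for apoptosis regulators (6 and 11 after correction), 8 higher and 12 lower of 38 for AP-1 and ERK feedback (11 and 8 after correction) and 6 higher and 10 lower of 29 for the Notch pathway (5 and 8 after correction). For protein and RNA handling there were 11 higher and 23 lower of 49 for translation factors (8 and 25 after correction), 8 higher and 19 lower of 40 for cytosolic chaperones (12 and 18 after correction) and 23 higher and 34 lower of 77 for splicing factors (18 and 36 after correction). For nuclear and mitochondrial upkeep there were 23 higher and 17 lower of 60 for DNA repair (12 and 24 after correction), 2 higher and 4 lower of 28 for replication-dependent histones (6 and 2 after correction) and 8 higher and 21 lower of 51 for mitochondrial import and dynamics (12 and 18 after correction). The remaining counts were 13 higher and 17 lower of 58 for axon guidance (10 and 19 after correction), 6 higher and 6 lower of 16 for ligand-gated ion channels (6 and 5 after correction) and 4 higher and 11 lower of 20 for dystroglycan glycosylation (6 and 6 after correction). Last, there were 10 higher and 9 lower of 30 for metal handling (9 and 11 after correction), 10 higher and 12 lower of 35 for regulators of N-Myc stability (10 and 14 after correction) and 2 higher and 4 lower of 10 for the MYC and MAX network (4 and 3 after correction).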
